A study of Kluyveromyces marxianus and Kluyveromyces lactis with 30 samples.

Results

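The 4 alcohol dehydrogenase (ADH) genes of the milk yeast Kluyveromyces lactis were followed across 5 growth conditions. They were taken by their gene IDs as KLLA0F21010g (ADH1), KLLA0F18260g (ADH2), KLLA0B09064g (ADH3) and KLLA0F13530g (ADH4). These are 4 of the 5320 K. lactis genes shared by its files, and of 10527 genes over both yeasts of the series. The files carry the IDs without names, so the names rest on the choice of IDs and were not read from the data. Each gene was listed as a single exon, of 1053, 1047, 1125 and 1128 bases for ADH1 to ADH4, which is near the length set as an identity check, and all 4 were kept. All 4 passed the filter on low counts, so none was left out.

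The cultures were of strain yLB72 and were given either heat at 39C, methyl methanesulfonate (MMS, an agent that alkylates DNA), ethanol, caffeine, or no stress at 28C as the control. The labels give neither a dose for the 3 chemicals nor a growth temperature for those cultures. Colonies were grown overnight in YPD, a rich glucose medium, and each 50 mL culture was started at an optical density of 0.05 and collected between 0.4 and 0.85. Each condition had 3 biological replicates, 15 libraries in all, sequenced after poly(A) capture. The series also holds 15 libraries of Kluyveromyces marxianus, which carry other gene IDs and were not analysed here. Genes of that yeast that match ADH1 to ADH4 were not looked for. RNA came from whole cultures, so less transcript in every cell and transcript in fewer cells cannot be told apart.

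Alcohol dehydrogenases interconvert acetaldehyde and ethanol with the coenzyme NAD. In fermentation they reduce the acetaldehyde made from pyruvate to ethanol and so regenerate NAD for glycolysis, and in the opposite direction they begin the use of ethanol as a carbon source. K. lactis divides this activity between the cytosolic enzymes Adh1 and Adh2 and the mitochondrial enzymes Adh3 and Adh4, whose genes are regulated differently from each other. ADH4 is known in this yeast as a gene induced by ethanol. K. lactis respires readily in the presence of glucose, unlike baker's yeast.

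The genes lay apart in the genome, and each had a long stretch free of annotated features before its start. ADH1 was at chromosome 6, 1962951 to 1964003, on the plus strand. ADH2 was at chromosome 6, 1683417 to 1684463, on the minus strand. ADH4 was at chromosome 6, 1251162 to 1252289, on the plus strand, and ADH3 was the only member on chromosome 2, at 792849 to 793973 on the minus strand. Along chromosome 6, 278 kilobases separated ADH1 from ADH2 and 431 kilobases separated ADH2 from ADH4, so no pair was a tandem copy. No member overlapped another annotated gene. The distance upstream to the nearest annotated feature was 1544 bases for ADH1, 1992 for ADH2, 1560 for ADH3 and 1659 for ADH4. The median over 4938 non-overlapping genes was 514 bases, with quartiles of 322 and 830 bases, and 7.47% of these genes had at least 1500 bases. All 4 members therefore lay above the upper quartile, and ADH2, with 145 genes above it, had the longest stretch of the 4. The upstream neighbour was on the opposite strand for ADH1 and ADH2 and on the same strand for ADH3 and ADH4. Coordinates are those of the deposited ethanol files, and no source used here names their genome build.

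**Figure D1:**
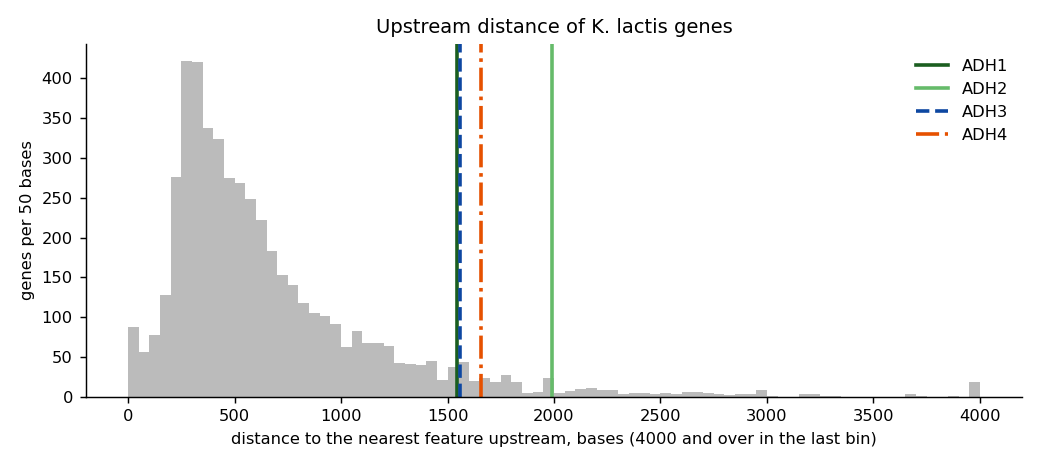
Distance in bases from the start of each of 4938 non-overlapping K. lactis genes to the nearest annotated feature upstream, in bins of 50 bases with distances of 4000 and over in the last bin. Vertical lines mark ADH1, ADH2, ADH3 and ADH4 at 1544, 1992, 1560 and 1659 bases, to the right of the bulk of the genes (median 514).

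Total gene counts per library ran from 16896112 to 50911717 in heat, MMS, caffeine and control cultures and from 38998321 to 94410956 in ethanol cultures. The ethanol files were made with another read counter and on exon features, whereas the other 12 were counted on coding parts. Every ethanol difference below therefore joins culture and counting method, and these cannot be told apart. Each member is a single part in both kinds of file. MMS replicate 3 stood apart from its group, with correlations of log2 level over 5124 genes of 0.9665 and 0.9736 with replicates 1 and 2, which correlated at 0.9948 with each other. It also held 3.01% ambiguous reads, against 1.75% and 1.69% in MMS replicates 1 and 2, and log2 changes and shares in MMS are given with and without it. Ethanol replicate 1 correlated at 0.9692 and 0.9836 with replicates 2 and 3, which correlated at 0.9902 with each other. Log2 changes in ethanol over control are also given without it. The 4 genes are related in sequence, and how reads that match several of them were handled is not given for most files. Movements of reads between members therefore cannot be seen. In controls ADH3 and ADH4 held 0.260% of the counts of the 4 genes. A movement that is small for ADH1 or ADH2 could thus be large for ADH3 or ADH4.

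ADH1 and ADH2, the cytosolic enzymes, were lower in all 4 stresses than in unstressed cultures, while the mitochondrial ADH4 was higher in all 4. ADH3, the other mitochondrial gene, rose 14.4-fold in caffeine and 1.47-fold in MMS, and did not pass the test in heat or ethanol. The 4 comparisons share the 3 control libraries. In what follows a level is in CPM, the counts scaled to a common library total after TMM normalization, which assumes that most genes do not change. A change is called at an adjusted p under 0.05 in edgeR's quasi-likelihood test, adjusted over all 5124 genes tested, and the error of a log2 change is its standard error (SE).

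In heat cultures 3 of the 4 members were called, 1 higher and 2 lower, where 71.0% of all tested genes were called. In MMS all 4 were called, 2 higher and 2 lower, against 71.5% of all genes. In ethanol 3 were called, 1 higher and 2 lower, against 65.5% of all genes, and in caffeine all 4 were called, 2 higher and 2 lower, against 62.7%. The counts are thus near the background, and it is the sizes and directions of the changes that are described here. The median log2 change of the 4 members was -0.85 in heat, beside -0.05 over all tested genes. It was -1.09 in MMS and -0.44 in ethanol, beside -0.00 over all genes in each, and -0.14 in caffeine, beside 0.01.

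**Figure D2:**
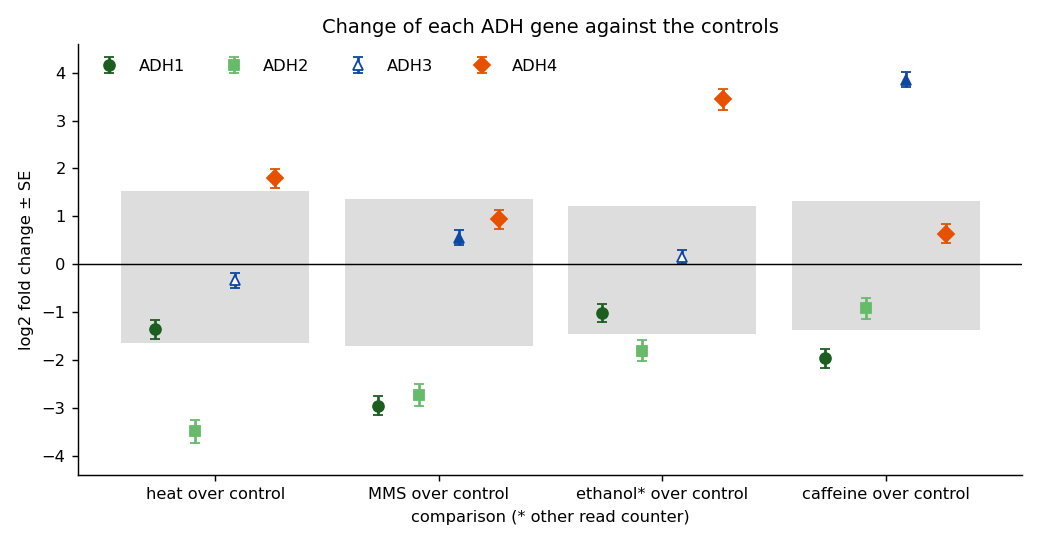
Log2 fold change of each ADH gene in heat, MMS, ethanol and caffeine cultures over control cultures, with bars of 1 SE; filled symbols passed the test and open symbols did not. Grey bands span the 5th to 95th percentile of all 5124 tested genes; ADH2 in heat, ADH4 in ethanol and ADH3 in caffeine lie farthest outside them.

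ADH1, a cytosolic enzyme, was the most abundant member by transcript level per length and was among the most abundant messages of the cell in every condition. Its levels were 10021, 11437 and 12587 CPM in the 3 heat cultures, 3688, 3659 and 3943 in MMS, 17732, 11005 and 14203 in ethanol and 7714, 7922 and 6686 with caffeine, against 31541, 29582 and 26296 CPM in controls. No stressed library reached the lowest control, and the MMS libraries were the lowest of all. Per length, ADH1 ranked between 6 and 9 of 5124 genes in controls, and in the stressed libraries it still ranked between 3 and 13. Its fall was 2.57-fold in heat (log2 change -1.36 ± 0.19, adjusted p = 2.44e-05), 7.74-fold in MMS (-2.95 ± 0.21, adjusted p = 3.04e-08) and 3.92-fold in caffeine (-1.97 ± 0.20, adjusted p = 1.15e-06) by edgeR. In ethanol it was 2.04-fold lower (-1.03 ± 0.19, edgeR adjusted p = 0.000367). ADH1 thus stayed near the top of the transcriptome in every library while its level fell.

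ADH2, the second cytosolic gene, had its lowest level in heat and spanned 11.3-fold between its highest and lowest group means. It stood at 964, 1206 and 1278 CPM in heat, 1801, 1747 and 2282 in MMS, 4526, 2752 and 3812 in ethanol and 7118, 7183 and 6278 with caffeine. The controls held 15325, 13597 and 9935 CPM, all above every stressed library. In heat ADH2 fell 11.3-fold (log2 change -3.49 ± 0.24, edgeR adjusted p = 3.71e-08), the 14th lowest log2 change of the 5124 tested genes. Its rank per length was 171 to 197 of the 5124 genes in heat, lower than the 15 to 19 in controls but still high among all genes. It fell 6.67-fold in MMS (-2.74 ± 0.23, edgeR adjusted p = 1.78e-07) and 1.89-fold in caffeine (-0.92 ± 0.22, adjusted p = 0.00219), and was 3.50-fold lower in ethanol (-1.81 ± 0.22, adjusted p = 1.02e-05). The estimated fall was thus larger for ADH2 than for ADH1 in heat and larger for ADH1 in caffeine. The difference between the genes is taken up with their shares of counts.

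**Figure D3:**
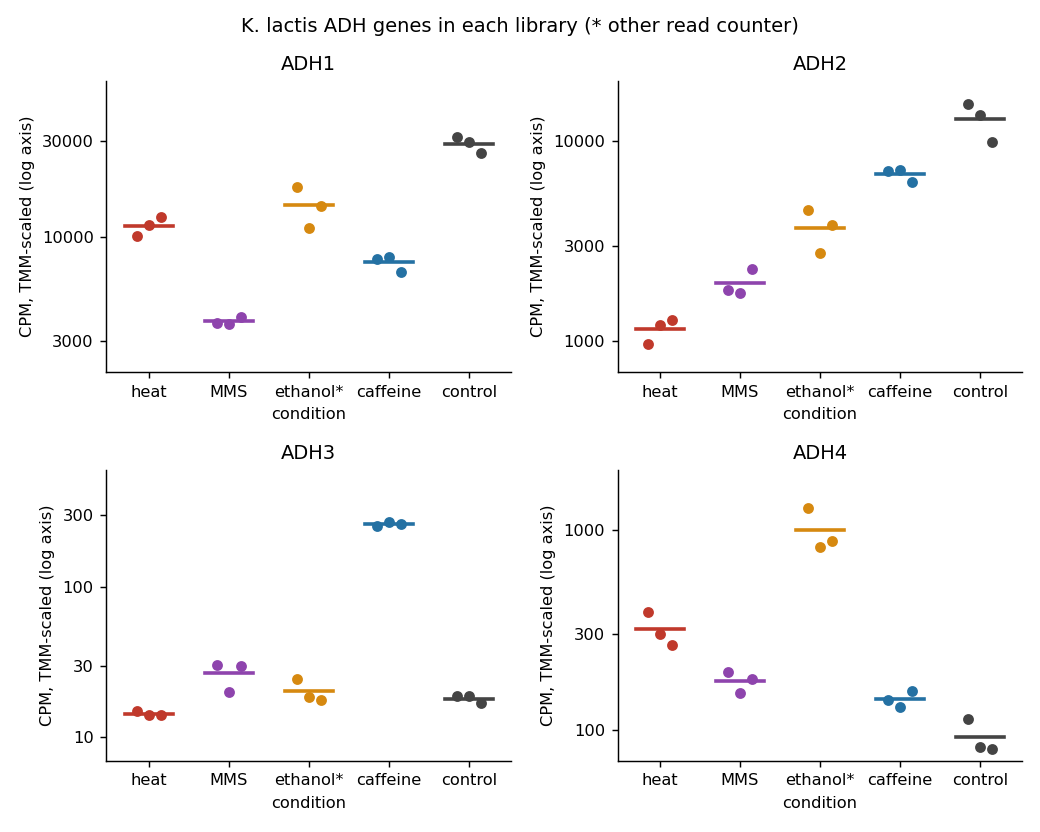
Level of each ADH gene in CPM on a log axis in the 3 libraries of each condition (points) with the group mean (bar), heat, MMS, ethanol and caffeine left of control. ADH1 and ADH2 are highest in controls (26296 to 31541 and 9935 to 15325 CPM), ADH3 is highest in caffeine (256 to 272 CPM) and ADH4 in ethanol (823 to 1284 CPM).

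ADH3, a mitochondrial enzyme, was the least abundant member in every condition except caffeine. Its levels were 15.1, 14.1 and 14.0 CPM in heat, 30.5, 20.0 and 29.9 in MMS, 24.6, 18.5 and 17.7 in ethanol and 256, 272 and 260 with caffeine, against 18.8, 18.7 and 16.8 CPM in controls. The caffeine libraries stood alone, far above every other library, and differed little among themselves, with a coefficient of variation of 3.12%. These levels rested on 283 to 2039 reads per library outside caffeine and on 5185, 6155 and 14047 reads in caffeine. The rise in caffeine was 14.4-fold (log2 change 3.85 ± 0.16, edgeR adjusted p = 3.83e-10), the 12th highest of the 5124 tested genes. The rank of ADH3 per length was 633 to 670 in caffeine, against 4291 to 4436 in controls. In MMS it rose 1.47-fold (0.56 ± 0.15, edgeR adjusted p = 0.004), with replicate 2 nearest to the controls. In heat its log2 change was -0.34 ± 0.15 (edgeR adjusted p = 0.0606), and the result depended on the fit and the scaling. It was called lower when the 6 heat and control libraries alone were fitted (-0.29, edgeR adjusted p = 0.0125). Over raw instead of TMM-scaled totals it was -0.02 (edgeR adjusted p = 0.917), and the groups then overlapped, at 14.4, 13.0 and 12.7 CPM of raw totals in heat and 13.9, 13.8 and 12.8 in controls. In ethanol it was 0.15 ± 0.15 (adjusted p = 0.367) with overlapping groups, and without ethanol replicate 1 it was -0.00 (edgeR adjusted p = 0.983). Over raw totals it was 0.64 and called (edgeR adjusted p = 0.000442).

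ADH4, the second mitochondrial gene, was higher in every stress, with its highest level in ethanol. It stood at 390, 300 and 264 CPM in heat, 194, 153 and 179 in MMS, 1284, 823 and 881 in ethanol and 141, 130 and 156 with caffeine, against 113, 81.9 and 79.9 CPM in controls. No stressed library overlapped the controls. In ethanol ADH4 was 10.9-fold higher (log2 change 3.44 ± 0.21, edgeR adjusted p = 1.6e-08), the 16th highest of the 5124 tested genes. Its rank per length was 148 to 194 in ethanol, against 1547 to 2012 in controls. In heat it rose 3.47-fold (1.80 ± 0.20, edgeR adjusted p = 2.54e-06) and in MMS 1.91-fold (0.94 ± 0.20, adjusted p = 0.000716). Its rise in caffeine, 1.55-fold (0.63 ± 0.20, edgeR adjusted p = 0.0117), was the smallest of the 4. That call was lost without control replicate 2 (log2 change 0.56, adjusted p = 0.0516) or control replicate 3 (0.54, adjusted p = 0.0523).

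The MMS changes kept their calls and directions without MMS replicate 3. The log2 changes were then -2.99 for ADH1, -2.87 for ADH2, 0.47 for ADH3 and 0.92 for ADH4 (edgeR adjusted p = 1.3e-07, 4.31e-07, 0.0157 and 0.00168). With ethanol replicate 1 left out, the ethanol changes were -1.21 for ADH1, -1.98 for ADH2 and 3.22 for ADH4 (edgeR adjusted p = 5.93e-05, 8.66e-06 and 1.72e-08). The sizes of the changes also depended on the scaling. Over raw instead of TMM-scaled totals, ADH1 and ADH2 changed by -2.12 and -1.91 in MMS and ADH3 and ADH4 by 1.38 and 1.76, all in the same directions.

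Raw totals moved the median log2 change of all tested genes to 0.27 in heat, 0.83 in MMS, 0.50 in ethanol and 0.49 with caffeine. Genes called higher and lower then numbered 2334 and 1130 in heat, 3682 and 526 in MMS, 3037 and 694 in ethanol and 3023 and 624 with caffeine. With TMM scaling they numbered 1653 and 1983 in heat, 1828 and 1837 in MMS, 1697 and 1657 in ethanol and 1616 and 1598 with caffeine. ADH1, ADH2 and ADH4 kept their direction and call over raw totals in all 4 stresses, but some sizes moved. ADH1 in ethanol was then at -0.56 (edgeR adjusted p = 0.00142), ADH2 in caffeine at -0.43 (adjusted p = 0.0302) and ADH4 in caffeine at 1.12 (adjusted p = 7.74e-05).

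**Figure D4:**
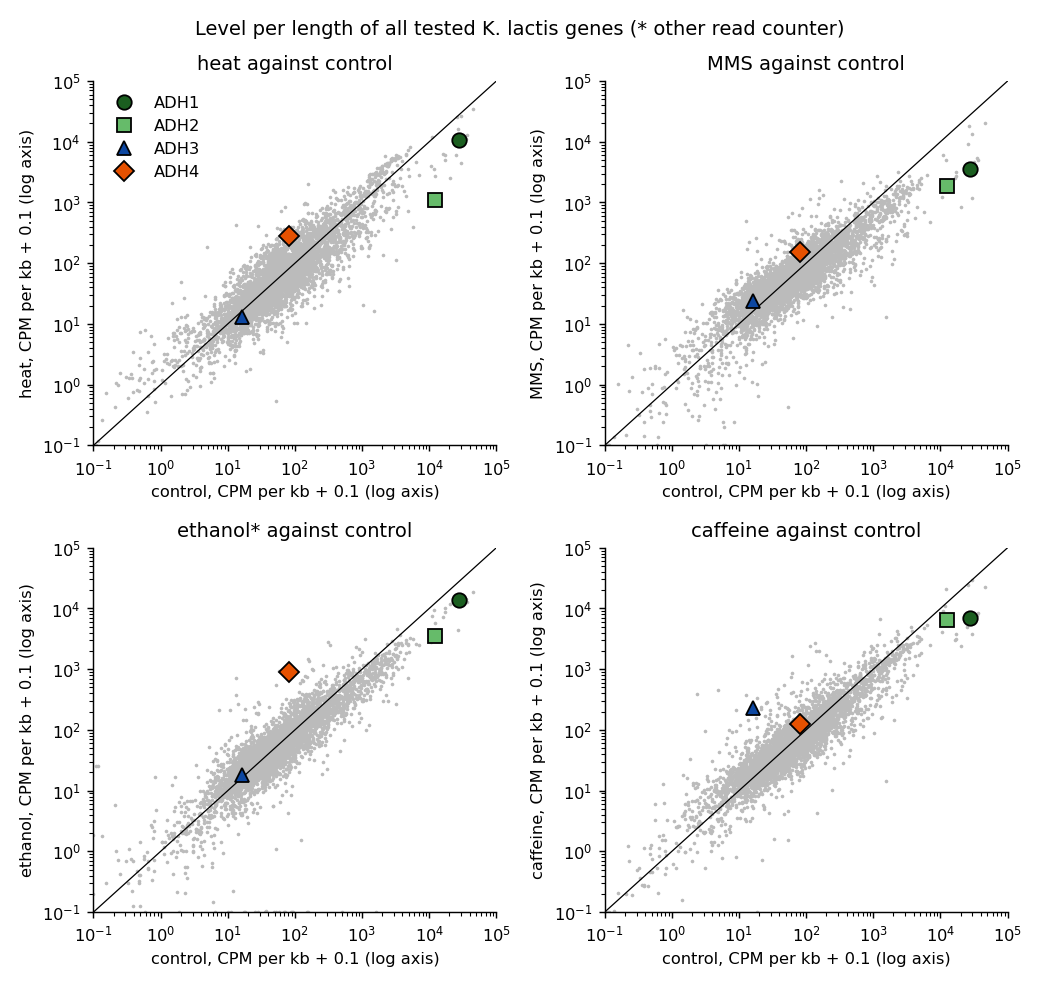
Mean level per length of all 5124 tested genes (grey) and the 4 ADH genes (symbols) in each stress (vertical) and in control (horizontal), in CPM per kilobase of exon plus 0.1 on log axes, with the line of equal level. ADH1 and ADH2 lie at the upper right below the line in each panel, ADH4 lies above the line in each, and ADH3 leaves the line mainly in caffeine.

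Compared per length, the order of the members was the same in 4 of the 5 conditions. In heat, MMS, ethanol and control cultures it ran ADH1, ADH2, ADH4, ADH3, and in each of these the ranges of neighbours in the order did not overlap. In heat ADH1 stood 9.82 times above ADH2, against 2.24 times in controls, and ADH2 stood 3.89 times above ADH4, against 152 times in controls. In caffeine the order ran ADH1, ADH2, ADH3, ADH4. There ADH1 and ADH2 were level, at 7066 ± 628 and 6552 ± 482 CPM per kilobase (SD, n = 3), with overlapping ranges. ADH3 was at 233 ± 7.29 CPM per kilobase and stood above ADH4 at 126 ± 11.7, without overlap, whereas in controls ADH4 stood 5.05 times above ADH3. These orders are descriptions without a test.

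Summed over the 4 genes, ADH transcripts took 1.19% ± 0.0996 of all gene counts in the heat cultures (SD, n = 3), 0.780% ± 0.0129 in MMS cultures, 1.96% ± 0.262 in ethanol cultures and 1.54% ± 0.101 with caffeine, against 3.14% ± 0.364 in controls. On the CPM scale the sum was 12830 ± 1380 in heat, 5909 ± 460 in MMS, 19027 ± 4485 in ethanol and 14705 ± 1156 with caffeine, against 42202 ± 5416 in controls. Every stressed library lay below every control. On this TMM scale the ratio was 3.29 (control to heat), 7.14 (control to MMS), 2.22 (control to ethanol) and 2.87 (control to caffeine). The percentages above rest on raw totals, and by them the fall was smaller in each stress. Each difference in the TMM-scaled sum gave a 2-sided p of 0.1 in an exact permutation test, the smallest value possible with 3 libraries a group. Adjusted by Benjamini-Hochberg over the 16 tests on sums and shares the exact p was 0.114, so none passed the threshold.

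Within the ADH counts of a library, the mitochondrial genes held a larger share in every stressed library than in any control. Scaling of totals cannot move such shares, but reads assigned to the wrong member could, which was not tested. ADH3 and ADH4 together made up 2.65% ± 0.819 of ADH counts in heat (SD, n = 3), 3.43% ± 0.445 in MMS, 5.36% ± 0.535 in ethanol and 2.77% ± 0.296 with caffeine, against 0.260% ± 0.0249 in controls. The 12 stressed libraries ran from 1.97% to 5.77% and the 3 controls from 0.232% to 0.281%, without overlap (exact permutation p = 0.1 in each comparison, adjusted p = 0.114). Without MMS replicate 3 the MMS share exceeded the control share by 3.26 percentage points, against 3.17 with it. Both pairs contributed to this share. The cytosolic genes were lower in stress, and the mitochondrial sum was 333 ± 65.4 CPM in heat, 202 ± 26.5 in MMS, 1016 ± 255 in ethanol and 405 ± 10.1 with caffeine, against 109.8 ± 19.4 CPM in controls.

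Within the cytosolic pair ADH1 took 90.8% ± 0.381 of counts in heat (SD, n = 3), 66.1% ± 2.38 in MMS, 79.5% ± 0.593 in ethanol and 52.0% ± 0.437 with caffeine, against 69.5% ± 2.76 in controls. Heat and ethanol lay above the controls and caffeine below them, each without overlap (exact permutation p = 0.1, adjusted p = 0.114), while MMS overlapped the controls (exact permutation p = 0.2, adjusted p = 0.2). The MMS difference of -3.39 percentage points was -2.02 without MMS replicate 3 and -1.83 without control replicate 3. Within the mitochondrial pair ADH3 took 4.41% ± 0.661 in heat, 13.1% ± 1.43 in MMS, 2.02% ± 0.166 in ethanol and 64.9% ± 2.62 with caffeine, against 16.7% ± 2.25 in controls. Caffeine thus stood above the controls and heat and ethanol below them without overlap (exact permutation p = 0.1, adjusted p = 0.114), and MMS again overlapped (exact permutation p = 0.2, adjusted p = 0.2). That overlap came from MMS replicate 3 at 14.3%, against 14.2% in the lowest control, and MMS replicates 1 and 2 lay below the controls at 13.6% and 11.5%. The MMS difference of -3.62 percentage points was -4.20 without replicate 3. By these shares heat and ethanol libraries leaned to ADH1 and ADH4 relative to controls and caffeine libraries to ADH2 and ADH3, while MMS libraries overlapped the controls in both.

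**Figure D5:**
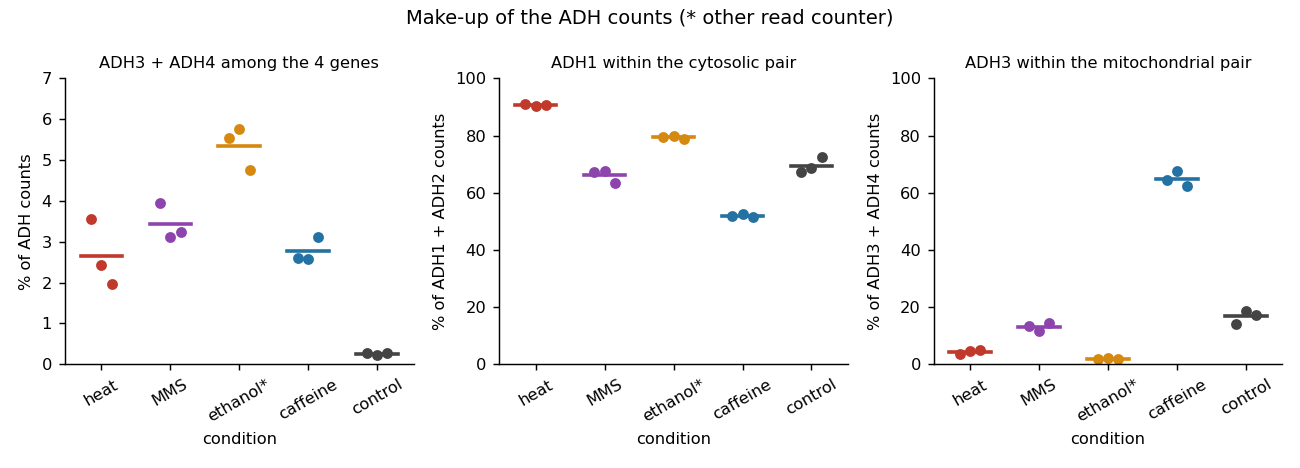
Share of ADH3 plus ADH4 among the counts of the 4 genes (left), of ADH1 among ADH1 plus ADH2 (middle) and of ADH3 among ADH3 plus ADH4 (right), in percent, for the 3 libraries of each condition (points) and their mean (bar). The mitochondrial share is 1.97% to 5.77% in stressed libraries and 0.232% to 0.281% in controls, and the ADH3 share of the mitochondrial pair is highest in caffeine at 64.9%.

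The 3 stresses counted with the same counter were also compared directly. Each log2 change sets 1 stress against another without the control means. The filter, scaling, spread, SE and p still come from the fit of all 15 libraries, controls and ethanol included. In caffeine over heat all 4 members were called, where 73.1% of all tested genes were, and their median log2 change was 0.98, beside 0.02 over all genes. ADH2 was 5.97-fold higher in caffeine cultures than in heat cultures (log2 change 2.58 ± 0.23, edgeR adjusted p = 2.57e-07) and ADH3 18.3-fold higher (4.19 ± 0.16, adjusted p = 3.6e-10). ADH1 was 1.53-fold lower (-0.61 ± 0.19, edgeR adjusted p = 0.0107) and ADH4 2.24-fold lower (-1.16 ± 0.20, adjusted p = 0.00011). The members thus split within each pair, with ADH2 and ADH3 higher in caffeine and ADH1 and ADH4 higher in heat.

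In MMS over heat all 4 were again called, against 71.8% of all tested genes, with a median log2 change of -0.05 beside 0.04 over all genes. ADH1 was 3.02-fold lower in MMS (log2 change -1.59 ± 0.20, edgeR adjusted p = 9.94e-06) and ADH4 1.81-fold lower (-0.86 ± 0.20, adjusted p = 0.00143), while ADH2 was 1.69-fold higher (0.76 ± 0.22, adjusted p = 0.00649) and ADH3 1.86-fold higher (0.89 ± 0.15, adjusted p = 0.000143). Over raw totals the ADH4 difference was not called (-0.35, edgeR adjusted p = 0.0877), and ADH2 and ADH3 were at 1.26 and 1.40. Without MMS replicate 3 the 4 log2 changes were -1.65, 0.61, 0.79 and -0.89 for ADH1, ADH2, ADH3 and ADH4, all called.

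In MMS over caffeine 3 members were called, all lower, against 65.4% of all tested genes in either direction, and the median log2 change of the 4 members was -1.40, beside 0.02 over all genes. ADH3 was 9.82-fold lower in MMS (log2 change -3.30 ± 0.16, edgeR adjusted p = 2.17e-09), ADH2 3.53-fold lower (-1.82 ± 0.22, adjusted p = 8.36e-06) and ADH1 1.98-fold lower (-0.98 ± 0.19, adjusted p = 0.000482). ADH4 had 176 ± 20.8 CPM in MMS and 142 ± 13.2 CPM in caffeine (SD, n = 3; log2 change 0.30 ± 0.20, edgeR adjusted p = 0.185), with overlapping groups. Without MMS replicate 3 the log2 changes were -1.04 for ADH1, -1.97 for ADH2, -3.40 for ADH3 and 0.27 for ADH4, with the first 3 called. Over raw totals ADH4 was called higher in MMS (0.64, edgeR adjusted p = 0.00595) and ADH1 was at -0.64.

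The members differed from each other in pattern. Over the 12 libraries of 1 counter the Pearson correlation of log2 CPM was 0.574 for ADH1 and ADH2 and -0.216 for ADH3 and ADH4. For ADH2 and ADH4 it was -0.899, which became -0.448 with the ethanol libraries added. The remaining pairs were at -0.325 for ADH1 and ADH3, -0.421 for ADH1 and ADH4 and 0.37 for ADH2 and ADH3. With the ethanol libraries added these became -0.348, -0.0109 and 0.365. These 12 libraries fall into 4 conditions, so the values describe how the condition means line up and carry no test.

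The genes nearest to each member in pattern are given as a description over the same libraries. They were picked as the highest correlations among all genes compared, so high values follow from the choice. As for the pairs of members, the values describe how condition means line up. For ADH3 the caffeine libraries, far above the others, weigh most in them. Of 4676 genes without an overlapping neighbour and with a mean of 10 CPM or more, 179 had a correlation of at least 0.9 with ADH1 over the 12 libraries, 216 with ADH2, 132 with ADH3 and 76 with ADH4. The gene most like ADH1 was KLLA0A05544g (r = 0.993), at 2374 ± 316 CPM in heat, 913 ± 72.4 in MMS, 1900 ± 76.1 in caffeine and 6802 ± 431 in controls (SD, n = 3), followed by KLLA0C01606g (r = 0.993). The genes most like ADH2 were KLLA0E23079g (r = 0.991), at 27.8 ± 2.52 CPM in heat, 101 ± 3.97 in caffeine and 164 ± 21.9 in controls, and KLLA0E21297g (r = 0.988). Those most like ADH3 were KLLA0E11023g (r = 0.995), at 703 ± 24.7 CPM in caffeine and 192.5 ± 21.4 in controls, and KLLA0E20417g (r = 0.986). ADH4 was followed by KLLA0F22176g (r = 0.964) and KLLA0B05181g (r = 0.96), which had 154 ± 8.28 and 217 ± 2.30 CPM in heat, against 67.4 ± 5.18 and 93.1 ± 3.93 in controls. Likeness over the 12 libraries held less well once the ethanol libraries were added. For ADH4 the correlations were then 0.145 and 0.107, and its 2 nearest genes had 82.6 ± 11.0 and 109 ± 11.0 CPM in ethanol, where ADH4 had 996 ± 251. For ADH3 they were 0.921 and 0.592, for ADH2 0.831 and 0.971 and for ADH1 0.984 and 0.95. Ranking over all 15 libraries kept 1 of the 2 nearest genes for ADH1 and for ADH2 and 0 of the 2 for ADH3 and for ADH4. Ranking by Spearman correlation over the 12 libraries kept 0 of the 2 for ADH1, ADH2 and ADH3 and 1 of the 2 for ADH4. The files do not pair these IDs with names.

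The genes next to the members moved in both directions. Of the 8 genes that flank ADH1 to ADH4, 3 rose and 3 fell in heat, with log2 changes from -2.98 to 1.75. In MMS 3 rose and 3 fell, from -4.59 to 1.88, and in caffeine 3 rose and 3 fell, from -3.08 to 2.72. In ethanol 1 was higher and 2 were lower, from -1.03 to 0.74. Of all tested genes 71.0% were called in heat, 71.5% in MMS, 65.5% in ethanol and 62.7% with caffeine. The 6 called of 8 in heat, MMS and caffeine is thus near the background, while ethanol had a smaller share called than the background.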

How the data were processed

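The authors deposited raw counts, with no normalization. TopHat and HTSeq are named, without versions, in the submitters' processing notes. The 3 K. lactis ethanol files were counted on exons with featureCounts 1.6.3 from a file of alignments named unique, per the file headers. The build and the HTSeq strand setting are not given in the sources used here. Parts were summed to 5320 genes. Library sizes were sums of gene counts and left out ambiguous reads and reads on no feature in all libraries. Reads on no feature were 4.68% to 8.04% outside ethanol, and their share is not known for ethanol. All 15 K. lactis libraries were fitted in edgeR 4.0.16 (R 4.3.3; filterByExpr, 5124 genes kept; TMM factors 0.735 to 1.39; quasi-likelihood test; 2-sided; Benjamini-Hochberg). The SE is the log2 change divided by the square root of F. Shares were tested by exact permutation (scipy 1.17.1). The edgeR and DESeq2 fits were tested on simulated counts with known changes. In these counts few genes changed, equally up and down, so TMM scaling with most genes moving was not tested. Alternatives were RLE scaling, raw totals (chosen after seeing the data), DESeq2 1.42.0, no filter, fewer libraries, a 2-fold minimum, each replicate left out and the replicate number as a block. Correlations of same-numbered deviations were all over a set threshold of 0.1 in caffeine over heat alone (0.106 to 0.31). That threshold was not tested, so pairing by replicate number is not established. It comes from the data, not the labels. The nearest genes by pattern were the 2 of highest Pearson correlation per member. The members and lists were chosen with earlier results of these data known. A list of 35 pathway symbols was not used, since the files pair 0 of them with an ID. No sequence is printed.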

Additional observations from a re-analysis of the deposited data

How the results depend on the processing

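RLE scaling, DESeq2 and no filter changed no call or direction among the 28 member changes, nor did the fit without ethanol among the 24 it could give. The replicate block, which pairs libraries by number, changed none of the 28 calls and left 3610 genes called in heat, 3719 in MMS, 3342 in ethanol and 3256 with caffeine over control. A 2-fold minimum lowered the genes called in heat, MMS, ethanol and caffeine over control to 1300, 1231, 960 and 903, and in MMS over heat, caffeine over heat and MMS over caffeine to 1082, 1425 and 955. It also ended, by its own construction, the calls of ADH3 (0.56) and ADH4 (0.94) in MMS, ADH2 (-0.92) and ADH4 (0.63) in caffeine, ADH2 (0.76), ADH3 (0.89) and ADH4 (-0.86) in MMS over heat, ADH1 (-0.61) in caffeine over heat and ADH1 (-0.98) in MMS over caffeine. With 6 libraries fitted, ADH3 in heat was called (-0.29). Raw totals, chosen after seeing the data, gave calls to ADH3 in ethanol (0.64) and ADH4 in MMS over caffeine (0.64) and ended that of ADH4 in MMS over heat (-0.35). Leaving out 1 replicate moved ADH3 in ethanol between -0.0037 and 0.21, with a change of sign, and ADH4 in caffeine between 0.54 and 0.81, with the call lost in 2 fits; the other 165 such values kept call and direction. Causes other than the 2-fold minimum were not tested. ADH3 had the fewest reads of the 4 genes outside caffeine, 283 to 2039 per library.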
